A study of Mus musculus with 60 samples.

Results

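Myoglobin and 5 enzymes that buffer the energy supply of muscle (Mb, Car3, Ckm, Ckmt2, Ak1 and Ampd1) were set side by side in wild-type and MSTN-null mice. These 6 of the 18193 genes named on the arrays were chosen by symbol, and they are read by the 12 probe sets, of 45037 analysed, whose platform annotation gives one of the 6 symbols alone: 2 for Mb, 4 for Car3, 2 for Ckm, 2 for Ak1 and 1 each for Ckmt2 and Ampd1. Wild-type and Mstn-null mice were of the C57BL/6J strain, and the Mstn allele is not given in the sources used here. Mstn itself was not analysed here, as 0 probe sets used carry its symbol. Each sample was an RNA pool of 3 animals of a single genotype, and each genotype gave 5 pools (15 animals) of whole embryos (13.5 d.p.c.), of hindquarters (17.5 d.p.c.) and of the pectoralis at 35 days (d35). RNA of each pool was read on a MOE430A and a MOE430B chip, so that there were 60 arrays, and the values are the authors' RMA intensities on the log2 scale, so that a difference of 1 is a doubling. A difference is wild-type minus MSTN-null, and "called" means that the Storey q of limma, fitted to all probe sets of that time point, was under 0.05. The p-values describe the spread between pools, each of which averages over its animals.

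Myoglobin (Mb) is the oxygen-binding protein of muscle and is most abundant in slow, oxidative fibers and in the heart. Muscle creatine kinase (Ckm) regenerates ATP from phosphocreatine at the myofibrils, and sarcomeric mitochondrial creatine kinase (Ckmt2) makes phosphocreatine at the mitochondria. Adenylate kinase (Ak1) converts pairs of ADP into ATP and AMP, and AMP deaminase (Ampd1) removes that AMP as IMP. Carbonic anhydrase III (Car3) hydrates carbon dioxide slowly, and it is abundant in slow muscle fibers and also in adipocytes.

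The genes lie on 5 chromosomes of the mouse assembly GRCm38.p6: Mb on chromosome 15 (77015487 to 77050668), Car3 and Ampd1 on chromosome 3 (14863538 to 14872381 and 103073897 to 103099720), Ckm on chromosome 7 (19411094 to 19421583), Ckmt2 on chromosome 13 (91853386 to 91876923) and Ak1 on chromosome 2 (32621758 to 32635058). RefSeq promoter windows matched 4 of the 6 genes with 9 transcript starts, of which Mb has 3 and Ak1 has 4. The 250 bases before a start are shown for 1 start each of Mb, which had the largest difference between genotypes, and of Ckm and Ckmt2, the cytosolic and the mitochondrial kinase of the same reaction, whose differences had opposite signs at d35. Lower case is the strand of the gene read 5′ to 3′, and capitals mark every E-box (CANNTG, the core that MyoD-family factors bind) and GC box (GGGCGG or its reverse complement CCGCCC). The windows are chr15:77022728-77022977 on the minus strand for Mb, chr7:19410844-19411093 on the plus strand for Ckm and chr13:91876886-91877135 on the minus strand for Ckmt2.
Mb: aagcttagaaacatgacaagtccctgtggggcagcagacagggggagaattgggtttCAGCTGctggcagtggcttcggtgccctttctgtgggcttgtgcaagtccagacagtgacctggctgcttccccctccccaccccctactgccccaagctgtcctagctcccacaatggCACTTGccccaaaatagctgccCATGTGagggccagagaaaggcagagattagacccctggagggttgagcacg
Ckm: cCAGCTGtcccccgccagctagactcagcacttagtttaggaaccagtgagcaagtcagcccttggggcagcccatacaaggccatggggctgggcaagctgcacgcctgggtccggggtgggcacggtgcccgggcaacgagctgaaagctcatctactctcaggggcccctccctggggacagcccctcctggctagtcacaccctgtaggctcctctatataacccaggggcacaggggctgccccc
Ckmt2: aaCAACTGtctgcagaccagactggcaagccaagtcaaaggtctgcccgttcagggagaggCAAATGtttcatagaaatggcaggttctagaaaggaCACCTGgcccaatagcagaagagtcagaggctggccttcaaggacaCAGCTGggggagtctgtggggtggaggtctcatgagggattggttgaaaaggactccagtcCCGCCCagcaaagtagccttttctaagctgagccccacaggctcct
The Mb window shown holds 3 E-boxes, and the other windows of Mb hold 2 each. The Ckm window holds 1, and the Ckmt2 window 4 together with 1 GC box. Counted on both strands, all 9 windows of Mb, Ckm, Ckmt2 and Ak1 hold an E-box, which 66.2% of 32851 promoter windows of the same length hold too. The GC box was found in 1 of the 9 windows (32.7% of all), the AAGGTCA site of the estrogen-related receptors in 1, a window of Ak1 (4.08% of all), and the MEF2 motif in 0 (0.508% of all). The windows of 2 Mb starts overlap, and a match says only that these letters are present.

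All 6 genes had their highest wild-type level in pectoralis at d35 at their brightest probe set, but they did not reach it on the same schedule. Myoglobin stood at 7.81 (SD 0.0932, n = 5 pools) on the log2 scale in the embryo and at 7.97 (SD 0.215) in the 17.5 d.p.c. hindquarters, where the ranges of the pools overlapped, and at 13.60 (SD 0.0961) in pectoralis. Ckm, in contrast, was at 7.78 (SD 0.173) in the embryo and already at 13.36 (SD 0.200) in the hindquarters, with 14.41 (SD 0.0477) at d35. Car3 followed the same order, from 8.49 (SD 0.238) to 12.80 (SD 0.365) and 13.80 (SD 0.0416).

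Ckmt2 was the gene with the widest span, from 5.22 (SD 0.115) in the embryo through 9.31 (SD 0.337) to 13.12 (SD 0.0931). Ampd1 stood at 7.77 (SD 0.105), 10.09 (SD 0.495) and 12.04 (SD 0.0609), and Ak1 at 8.83 (SD 0.0610), 10.76 (SD 0.288) and 12.43 (SD 0.0877). For Car3, Ckm, Ckmt2, Ak1 and Ampd1 the ranges of the wild-type pools at neighboring time points did not overlap. These levels come from different tissues whose array medians differ (6.88 to 8.09 on chip A and 6.16 to 7.10 on chip B), and they are a description without a test.

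The other probe sets of a gene did not all share this course. The second probe set of Mb (1422420_at) lay at 7.02, 6.76 and 6.34 and the second of Ak1 (1423988_at) at 6.56, 6.62 and 6.47, so 10 of the 12 probe sets were highest at d35 by log2 level. By their rank within the array all 12 were. Both Mb 1422420_at and Ak1 1423988_at sat between the 20.4th and the 40.9th percentile of their arrays in every wild-type pool, whereas the brightest Mb probe set passed from a median percentile of 43.9 in the embryo to 99.9 at d35.

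**Figure D1:**
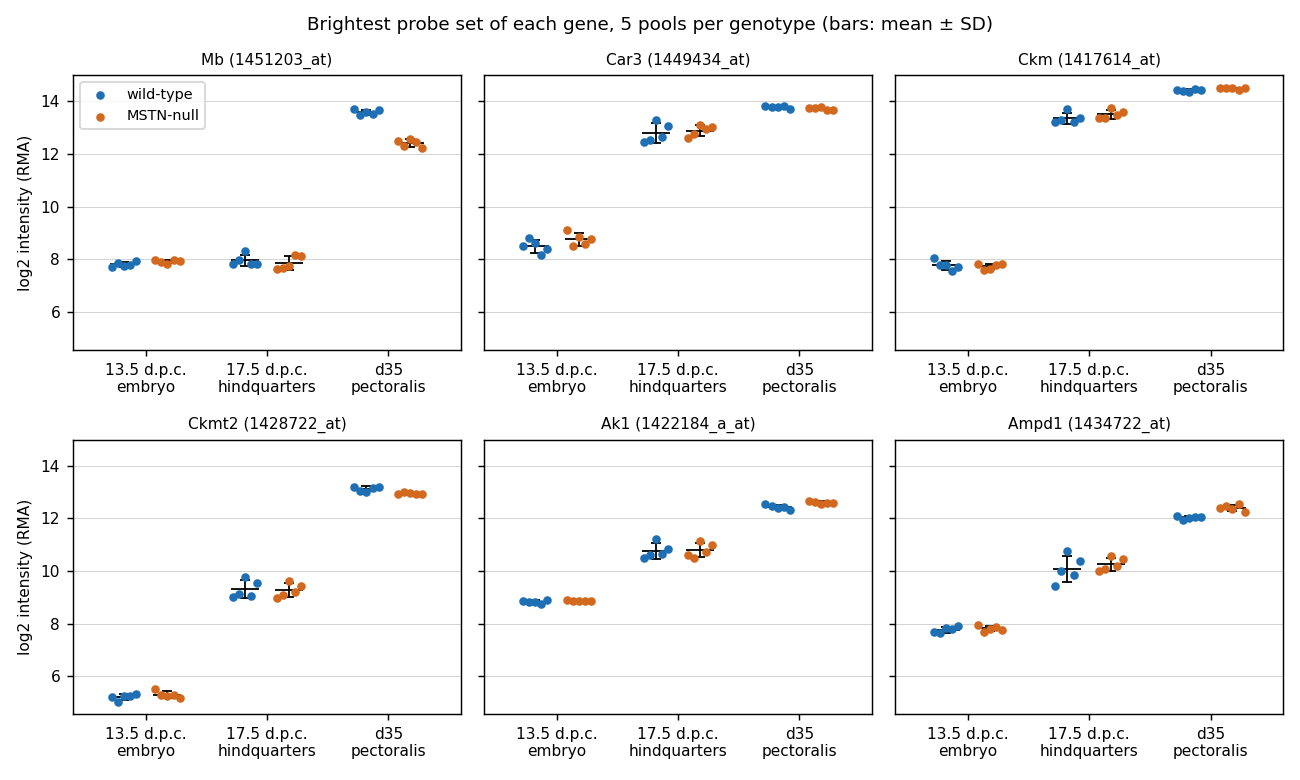
Log2 intensity (vertical axis) of the brightest probe set of each gene at the 3 time points, with 1 point per pool (blue, wild-type; orange, MSTN-null) and bars for the mean ± SD of 5 pools. Myoglobin stays near 8 until 17.5 d.p.c. and the genotypes separate at d35 (13.60 against 12.41), whereas the other 5 genes climb at each step.

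At d35, 5 of the 12 probe sets passed the threshold, of which 3 were higher in wild-type and 2 lower, where 4.58% of all probe sets were called (2.5% higher and 2.08% lower). They were 1 of the 2 probe sets of Mb and 2 of the 4 of Car3, which were higher in wild-type muscle, and 1 of the 2 of Ckm and that of Ampd1, which were lower. The 2 brighter probe sets of Car3 were not among them. Without MSTN-null replicate 3, or without wild-type replicate 3, the count was 3. Over all probe sets the calls then fell from 2062 to 1066 and 777, in that order. The pools of the genotypes did not overlap at 5 of the 12, against 5.25% of all probe sets (2.48% higher and 2.77% lower), and these were Mb 1451203_at, Car3 1453588_at and Ckmt2 higher, and Ckm 1444643_at and Ampd1 lower. Thus Ckmt2 separated completely without being called, and Car3 1430584_s_at was called with overlap.

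Myoglobin differed most among them. At Mb 1451203_at the wild-type pools stood at 13.69, 13.47, 13.61, 13.53 and 13.68, and the MSTN-null pools at 12.49, 12.29, 12.58, 12.45 and 12.22. Every wild-type pool was above every MSTN-null pool, and the SDs within the groups were 0.0961 and 0.148. The difference was 1.19 on the log2 scale (SE 0.0725, 95% CI 1.03 to 1.35), a 2.28-fold higher level in wild-type (limma, q = 4.92e-06; exact permutation p = 0.00794, two-sided, the smallest that 5 against 5 pools can give). The call held in all 18 refits with other settings or with 1 pool left out. Mb 1422420_at, a dim probe set, gave no such difference (-0.04, 95% CI -0.18 to 0.10, q = 0.514), and its 10 pools lay between 6.18 and 6.50. In these bulk samples, fewer cells of a kind and less RNA per cell cannot be told apart.

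The 4 probe sets of Car3 fell into pairs that differed in their calls. Car3 1449434_at and 1460256_at, which share a source entry in the platform annotation and are the brighter ones, were not called. At 1449434_at the wild-type pools ranged from 13.73 to 13.84 and the MSTN-null pools from 13.67 to 13.78, a difference of 0.08 (SE 0.0444, 95% CI -0.02 to 0.17, q = 0.256) at the 99.9th percentile of the arrays. At 1460256_at the difference was 0.03 (95% CI -0.19 to 0.24, q = 0.594), and the ranges overlapped.

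The other pair, which was built from a different entry, is on chip B and was higher in wild-type. Of these, 1453588_at is dim, at the 23.9th to the 49.9th percentile of its arrays, and 1430584_s_at lay at the 90.2nd to the 98.0th. At Car3 1453588_at the wild-type pools stood at 5.96, 6.03, 6.16, 5.80 and 5.74, and the MSTN-null pools at 5.20, 5.58, 4.93, 5.36 and 5.53. All wild-type pools were above all MSTN-null pools, by a mean of 0.62 (SE 0.117), or 1.53-fold (q = 0.00919). Car3 1430584_s_at, whose suffix marks probes that can match more than 1 transcript, stood at 8.90, 9.42, 9.41, 8.58 and 8.76 in wild-type and at 8.32, 8.70, 7.97, 8.27 and 8.64 in MSTN-null. Of the wild-type pools 4 of 5 were above the highest MSTN-null pool, and the difference was 0.64 (SE 0.173), or 1.55-fold (q = 0.0433). This call was lost in 8 of 17 refits, with Benjamini-Hochberg adjustment (adjusted p = 0.0673), with limma's trend and robust options (q = 0.0920) and without any one of wild-type replicates 1, 2 or 3 (q = 0.0616, 0.0847 and 0.128) or MSTN-null replicates 1, 3 or 4 (q = 0.0931, 0.104 and 0.0838). The 95% intervals of the pairs did not overlap, with 0.36 to 0.87 for 1453588_at against -0.19 to 0.24 for 1460256_at.

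The creatine kinases of the cytosol and the mitochondria had differences of opposite sign. Ckm 1444643_at, on chip B, was lower in wild-type, with 10.79, 10.56, 10.46, 10.75 and 10.79 against 10.89, 11.02, 11.08, 11.24 and 10.91 in MSTN-null. No pool overlapped, and MSTN-null was 1.28-fold higher (difference -0.36, SE 0.0819, q = 0.0222). The call was lost without wild-type replicate 3 (q = 0.0710) and without MSTN-null replicate 3 (q = 0.0587). The brightest probe set of Ckm, 1417614_at, differed in the same direction without being called (14.35 to 14.48 against 14.45 to 14.52, difference -0.08, 95% CI -0.18 to 0.01, q = 0.213), and 4 of 5 wild-type pools were below the lowest MSTN-null pool. It stood at the 99.97th percentile of its arrays, and the highest value of any array was 15.3.

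Ckmt2 stood at 13.21, 13.02, 13.02, 13.15 and 13.20 in wild-type and at 12.91, 12.99, 12.97, 12.94 and 12.91 in MSTN-null. Its wild-type pools were all higher, by 0.18 (SE 0.0517, 95% CI 0.07 to 0.29) or 1.13-fold, but q was 0.0543 over all probe sets (exact permutation p = 0.00794). It passed the threshold when only the brighter probe sets (q = 0.0305) or 1 probe set per gene (q = 0.0407) were tested.

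Of the enzymes that make and remove AMP, Ampd1 was lower in wild-type. It stood at 12.10, 11.94, 12.01, 12.06 and 12.06 in wild-type and at 12.39, 12.46, 12.36, 12.55 and 12.25 in MSTN-null. Every MSTN-null pool was above every wild-type pool, and MSTN-null was 1.29-fold higher (difference -0.37, SE 0.0588, q = 0.00378). In a single fit of all 30 pools the call was lost (q = 0.121). Ak1 1422184_a_at gave -0.17 (SE 0.0516, 95% CI -0.28 to -0.06, q = 0.0616), with 12.55, 12.47, 12.38, 12.44 and 12.32 against 12.67, 12.63, 12.55, 12.59 and 12.60. Of its wild-type pools 4 of 5 were below the lowest MSTN-null pool (exact permutation p = 0.0159), and it was called among the brighter probe sets (q = 0.0344), with 1 probe set per gene (q = 0.0470) and without wild-type replicate 1 (q = 0.0412). The dim Ak1 1423988_at gave -0.06 (95% CI -0.17 to 0.05, q = 0.379).

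**Figure D2:**
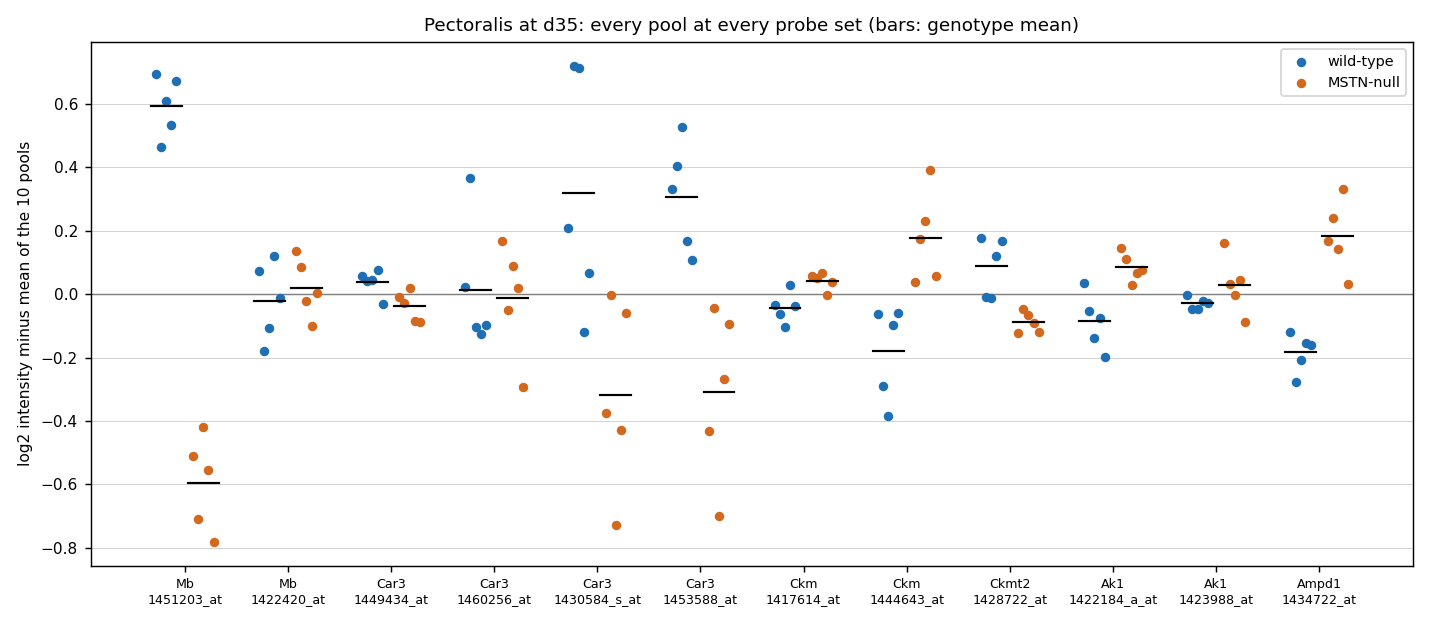
Each of the 10 pectoralis pools at each of the 12 probe sets, as log2 intensity minus the mean of the 10 pools (vertical axis), with bars for the genotype means (blue, wild-type; orange, MSTN-null). Mb 1451203_at separates by 1.19, the second pair of Car3 probe sets by 0.64 and 0.62 against 0.08 and 0.03 for the first, and Ckm 1444643_at and Ampd1 lie lower in wild-type.

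To ask whether a difference itself changed with time, interactions were fitted over all 30 pools, in which tissue and age change together. The wild-type excess of myoglobin was larger at d35 than at 17.5 d.p.c. by 1.09 (SE 0.139, limma, Benjamini-Hochberg adjusted p = 3.09e-05) and larger than at 13.5 d.p.c. by 1.30 (adjusted p = 9.73e-07). Of the 12 probe sets this was the only one called for d35 against 17.5 d.p.c., where 0.524% of all probe sets were. Ckm 1444643_at was called as well for d35 against 13.5 d.p.c. (-0.45, SE 0.107, adjusted p = 0.0324; 0.986% of all probe sets called), having been higher in wild-type in the embryo without a call and lower at d35. That interaction was lost when any one of 11 of the 20 pools was left out (adjusted p from 0.0510 to 0.0793): wild-type replicates 2 and 3 and MSTN-null replicates 3 and 4 of d35, and wild-type replicates 1, 3, 4 and 5 and MSTN-null replicates 2, 3 and 4 of 13.5 d.p.c. For Car3 1453588_at the interactions of d35 were 0.67 and 0.65 (adjusted p = 0.0970 and 0.0873; 0.0369 and 0.0161 for the former without wild-type replicate 3 or 5 of 17.5 d.p.c.), and for Ampd1 -0.19 and -0.32 (adjusted p = 0.728 and 0.578). In this fit the genotype difference of Ampd1 at d35 was therefore not shown to differ from those before birth. The fit shares a single spread over the time points. The wild-type SD of Ampd1 was 0.495 at 17.5 d.p.c., against 0.105 at 13.5 d.p.c. and 0.0609 at d35. In the separate fits its 95% intervals at d35 (-0.49 to -0.24) and 13.5 d.p.c. (-0.18 to 0.08) did not overlap. That at 17.5 d.p.c. (-0.64 to 0.30) overlapped both. A difference between time points was not tested with separate spreads. Between 17.5 and 13.5 d.p.c., 0 of the 12 were called, as were 0% of all probe sets, and the smallest unadjusted p of the 12 was 0.101.

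**Figure D3:**
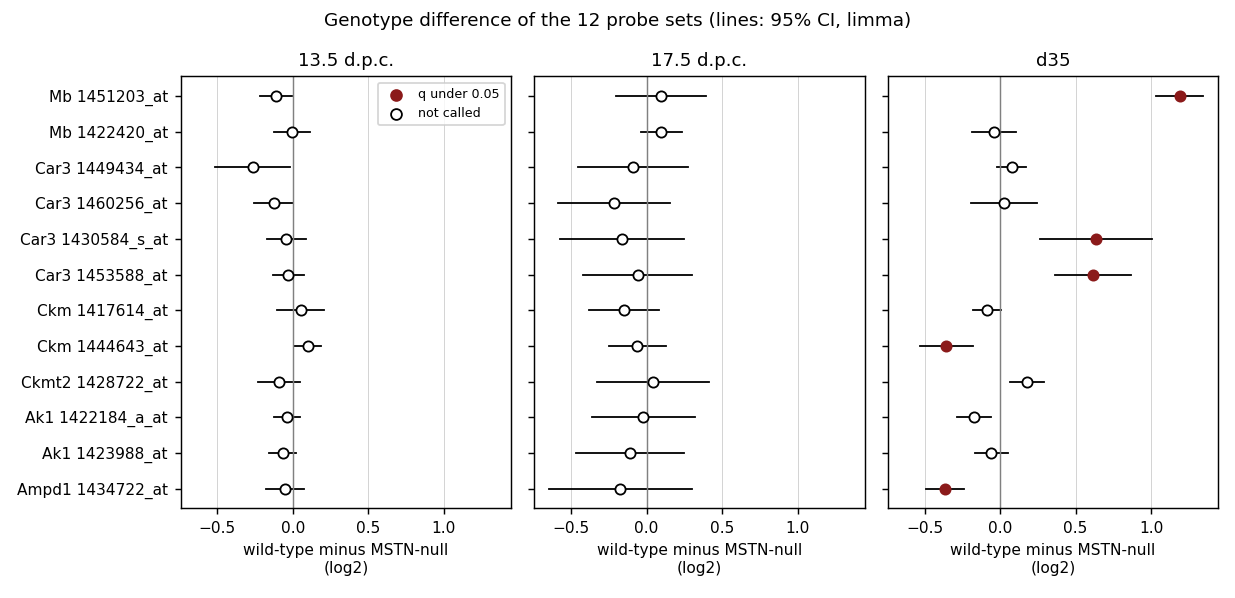
Wild-type minus MSTN-null difference on the log2 scale (horizontal axis) of the 12 probe sets at the 3 time points, with lines for the 95% confidence interval of limma and filled points for q under 0.05. The 5 filled points are all at d35, and the intervals at 17.5 d.p.c. are wider than those at d35 for 11 of the 12 probe sets.

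At 17.5 d.p.c. the genotypes were not separated at any of the 12 probe sets. By limma 0 were called (0% of all probe sets were), 0 had an unadjusted p under 0.05 (2.43% of all had), the smallest unadjusted p was 0.134, and the ranges of the genotypes overlapped at all 12, against 0.535% of all probe sets without overlap. Myoglobin stood at 7.84, 7.99, 8.33, 7.84 and 7.84 in wild-type and at 7.63, 7.66, 7.74, 8.17 and 8.14 in MSTN-null, a difference of 0.10 (95% CI -0.20 to 0.40). The interval holds no difference as large as that at d35. The same was so for the other called probe sets of d35 but Ampd1, with intervals of -0.57 to 0.25 for Car3 1430584_s_at, -0.42 to 0.30 for Car3 1453588_at and -0.25 to 0.13 for Ckm 1444643_at, although their interactions of d35 with 17.5 d.p.c. were not called (adjusted p = 0.140, 0.0970 and 0.257). The intervals of Car3 1449434_at (-0.09, 95% CI -0.46 to 0.27), Ckm 1417614_at (-0.15, 95% CI -0.38 to 0.08), Ckmt2 (0.04, 95% CI -0.33 to 0.41), Ak1 1422184_a_at (-0.02, 95% CI -0.36 to 0.32) and Ampd1 (-0.17, 95% CI -0.64 to 0.30) were wide enough to include the differences seen at d35.

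The spread within a genotype was larger here than at the other ages, and the genes shared it. The median SD of the brightest probe sets was 0.265, against 0.109 at 13.5 d.p.c. and 0.0543 at d35. Ampd1 ran from 9.45 in wild-type replicate 1 to 10.74 in wild-type replicate 3. The chip B array of wild-type replicate 1, which carries the Ampd1 value, stood apart, with a mean correlation of 0.951 to the other 9 arrays against 0.987 to 0.990 for those. Without that pool the difference of Ampd1 was -0.01 (95% CI -0.42 to 0.39) in place of -0.17, the lowest wild-type level was 9.86, and the median SD of the brightest probe sets was again 0.265. By limma 0 of the 12 probe sets were called without it, and the smallest unadjusted p was 0.0661. Replicate 3 was the highest wild-type pool for all 6 genes and replicate 1 was below the mean for all 6, and in MSTN-null replicate 3 was the highest for 5 of the 6, with Mb as the exception. The mean of 7 skeletal muscle markers (Acta1, Des, Myod1, Myog, Chrna1, Myh3 and Myh8) was also highest in replicate 3 of both genotypes, 0.29 and 0.22 above the genotype means, and lowest in wild-type replicate 1, 0.26 below. The part of muscle content in these shared deviations was not tested. A set of 5 liver markers ranged from 9.38 to 13.21 in MSTN-null and from 12.03 to 13.74 in wild-type hindquarters.

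**Figure D4:**
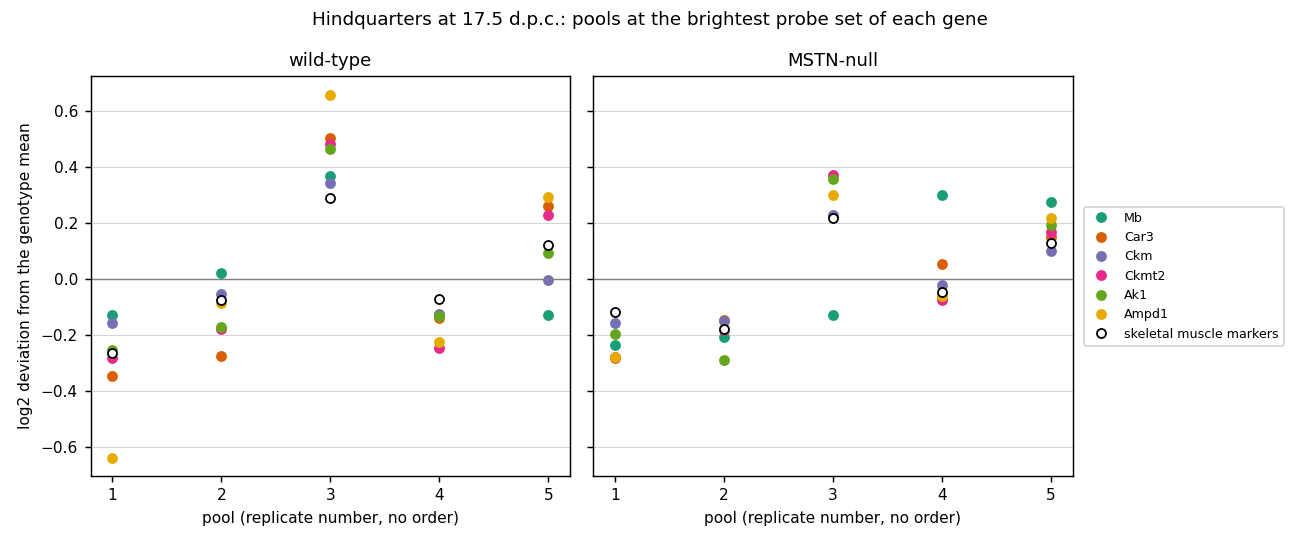
Log2 deviation from the genotype mean (vertical axis) of the brightest probe set of each gene in the 5 wild-type and 5 MSTN-null pools of 17.5 d.p.c. hindquarters, with the mean of 7 skeletal muscle markers as open circles. In replicate 3 of wild-type all 6 genes lie above the mean together with the markers, and in replicate 1 all lie below it.

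In whole embryos of 13.5 d.p.c., 0 of the 12 probe sets were called by limma, where 0.54% of all probe sets were, and the smallest q was 0.301. Of the differences 10 were below 0 (49.7% of all were), 4 had an unadjusted p under 0.05 (11.3% of all probe sets had), and the ranges overlapped at all 12 (2.4% of all were without overlap). Myoglobin stood at 7.70, 7.87, 7.75, 7.77 and 7.94 in wild-type and at 7.98, 7.88, 7.82, 7.97 and 7.95 in MSTN-null, so that 3 wild-type pools were below the lowest MSTN-null pool. Its difference was -0.11 (95% CI -0.22 to -0.01, q = 0.301). The widest difference was that of Car3 1449434_at, -0.27 (95% CI -0.51 to -0.02, q = 0.302), and Ckm 1444643_at gave 0.10 (95% CI 0.01 to 0.19, q = 0.302). MSTN-null replicate 1 was the highest MSTN-null pool at the brightest probe sets of all 6 genes, and its muscle marker mean ranked second of 5. The 3' actin controls exceeded the 5' ones, a gap that widens when RNA is degraded. On chip B the gap was 0.160 to 0.234 in wild-type and 0.290 to 0.318 in MSTN-null embryos (exact permutation p = 0.00794, two-sided). On chip A, which carries the brightest probe sets of Mb and Car3, it was 0.0677 to 0.214 and 0.201 to 0.346 (exact permutation p = 0.0159). For the Gapdh controls the exact permutation test gave p = 0.262 on chip A and 0.143 on chip B. The part of RNA quality in these differences was not tested.

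Other genes of the same pathways were taken from lists, with the brightest probe set of each gene, and counted in the same fits. Of 55 genes measured in 7 lists, 12 were called at d35. Over all probe sets, dim ones included, 4.58% were called, and with 1 probe set per gene 1345 of 18193 genes were. The lists were chosen with earlier results of these data known. In pectoralis the enzymes that make creatine were lower in wild-type muscle: Gatm, which forms guanidinoacetate, was at 6.37 against 7.19 in MSTN-null (1.77-fold higher in MSTN-null, q = 0.00126), and Gamt, which methylates it to creatine, at 8.59 against 9.26 (1.59-fold, q = 0.0102). Ckb, the brain-type creatine kinase, was 1.17-fold higher in wild-type (q = 0.0490), and of the 5 genes of this list Ckmt1 and the creatine transporter Slc6a8 were not called (-0.11 and -0.09). The genotypes did not overlap at Gatm or Gamt, and both calls held in all 18 refits, whereas that of Ckb was lost in 11 (q up to 0.141).

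Of 12 measured genes of AMP breakdown and the purine nucleotide cycle, 3 were higher in wild-type, 0 were lower, and the median difference was 0.07. These were Ampd3, the erythrocyte-type AMP deaminase (7.10 against 6.60, 1.41-fold, q = 0.00401), Pnp, purine nucleoside phosphorylase (1.44-fold, q = 0.0244), and Adk, adenosine kinase (1.27-fold, q = 0.0258). Ampd3 thus differed in the direction opposite to Ampd1, and its genotypes did not overlap. Adssl1, the muscle adenylosuccinate synthetase, was not called (-0.04). Of 6 other adenylate kinases measured, Ak3, the GTP:AMP kinase of the mitochondrial matrix, was higher in wild-type (1.17-fold, q = 0.0410), a call lost in 10 of 18 refits (q up to 0.125). The calls of Pnp and Adk were lost in 4 and 5 (q up to 0.0635 and 0.0962).

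Of the 8 genes of AMP-activated protein kinase, the sensor of AMP, 2 were lower in wild-type and 0 higher. Prkag3, the regulatory subunit of fast muscle fibers, was at 9.43 against 10.15 (1.64-fold higher in MSTN-null, q = 0.000739), and Prkab2, the beta subunit typical of muscle, at 10.65 against 11.09 (1.36-fold, q = 0.00397). Neither overlapped between genotypes, and both calls held in all 18 refits. The catalytic subunit of muscle, Prkaa2, gave -0.17 (q = 0.0733).

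Of 15 other carbonic anhydrases, Car4, a membrane-bound form of capillaries and muscle (1.31-fold, q = 0.0353), and Car8, which lacks catalytic activity (1.25-fold, q = 0.0339), were higher in wild-type, and Car14, another membrane form, was 1.23-fold higher in MSTN-null (q = 0.0315). Their calls were lost in 9, 8 and 8 refits (q up to 0.230, 0.432 and 0.0974). The other globins, Ngb and Cygb, were not called (-0.11 and 0.04), nor were the 7 ADP/ATP carriers and outer membrane channels (from -0.11 to 0.30). The medians of the 7 lists at d35 ranged from -0.11 to 0.07, beside -0.01 over all probe sets. Before birth 0 of the 55 were called by limma at 13.5 or 17.5 d.p.c., where 0.54% and 0% of all probe sets were. At 13.5 d.p.c. 5 (9.09%) had an unadjusted p under 0.05, against 11.3% of all probe sets. At 17.5 d.p.c. 4 (7.27%) had, against 2.43%. The smallest p-values of these lists were those of Prkag2 at 13.5 d.p.c. (0.16, q = 0.0998) and Car1 at 17.5 d.p.c. (0.42, unadjusted p = 0.00649).

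**Figure D5:**
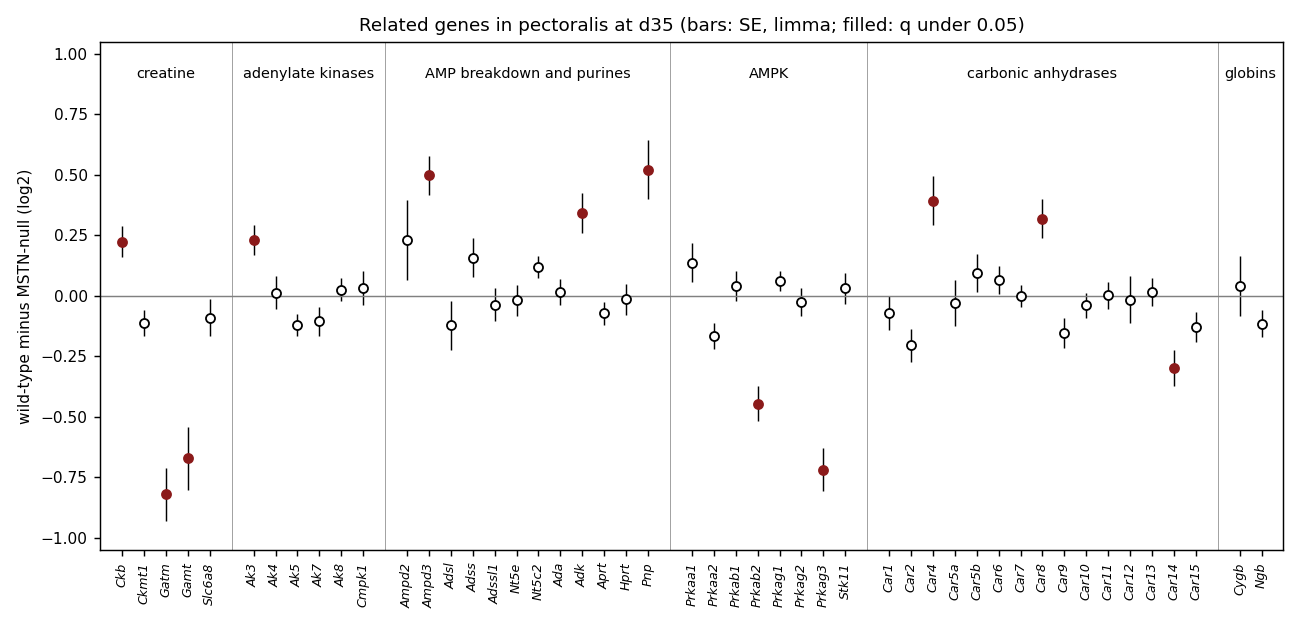
Wild-type minus MSTN-null difference on the log2 scale (vertical axis) of the measured genes of 6 related lists in pectoralis at d35, with the SE of limma as bars and filled points for q under 0.05. Gatm (-0.82), Prkag3 (-0.72) and Gamt (-0.67) are the lowest and Pnp (0.52) and Ampd3 (0.50) the highest.

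Some markers of fiber type and of other cells also differed between genotypes at d35. All 7 slow fiber markers (Myh7, Tnnt1, Tnnc1, Tnni1, Myl2, Myl3 and Atp2a2) were called higher in wild-type with a median difference of 2.30, and their mean level ran from 10.63 to 11.25 in wild-type pools and from 8.34 to 9.30 in MSTN-null. Of 10 fast fiber markers, Myh2 (0.86) and Myh1 (0.21) were called higher and Myh4 (-0.58) and Actn3 (-0.20) lower. The other fast markers also lay below 0, so that 8 of the 10 differences were negative (median -0.08). The defining heart genes Myh6, Nppa, Nppb and Myl7 were at 5.31 to 6.85 in both genotypes and none of 6 heart markers was called.

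Of 6 white adipocyte markers measured, 3 were called higher in wild-type (Cidec 0.98, Pparg 0.55 and Fabp4 0.40), all 6 differences were above 0, and their mean level ran from 9.12 to 9.43 in wild-type and from 8.28 to 9.18 in MSTN-null. Of 4 brown adipocyte markers 1 was called (Cidea, 0.81), with mean levels of 9.61 to 10.01 and 8.78 to 9.76. Adipocytes also express Car3, and the part of fat in the Car3 differences was not tested, nor was that of fiber type in any of the 12. Of 7 skeletal muscle markers 2 were lower in wild-type (Myh8 -0.44 and Chrna1 -0.35), with mean levels of 9.00 to 9.25 in wild-type and 9.19 to 9.42 in MSTN-null, and liver, erythroid and neuron markers had 0 calls. At d35 the same gap of the actin controls was 0.134 to 0.579 in wild-type and 0.0599 to 0.211 in MSTN-null on chip A (exact permutation p = 0.0873, two-sided). On chip B, which carries 4 of the 5 called probe sets (both of Car3, Ckm 1444643_at and Ampd1), it was 0.208 to 0.584 and 0.156 to 0.278 (exact permutation p = 0.0873). Wild-type replicates 2 and 3 had the widest gaps there (0.584 and 0.445), and they were also the highest wild-type pools at Car3 1430584_s_at and 1453588_at and the lowest at Ckm 1444643_at and Ampd1. Without both, in an alternative chosen after seeing the data, 3 wild-type pools were left. Over all probe sets limma then called 638 of 45037, in place of 2062. Of the 12 it called 3, Mb 1451203_at (1.23, q = 9.73e-06), Ampd1 (-0.33, q = 0.0313) and Ckmt2 (0.24, q = 0.0368). Car3 1453588_at (0.51, q = 0.0655), Ckm 1444643_at (-0.25, q = 0.147) and Car3 1430584_s_at (0.37, q = 0.244) were then not called. As wild-type replicates 2 and 3 were the extreme ones at these probe sets, leaving them out shrinks these differences whatever the cause. The lost calls are therefore no test of RNA quality. For the Gapdh controls at d35 the exact permutation test gave p = 0.659 on chip A and 0.143 on chip B. The part of RNA quality in these differences was not tested.

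Within a genotype at d35 the 6 genes were compared pair by pair. After subtraction of the genotype means, the correlations between their brightest probe sets over the 10 pools ran from -0.13 (Mb with Ak1) to 0.55 (Ckm with Ckmt2). With 10 pools and a median SD of 0.0543 at these probe sets, low values do not show that shared variation is absent. The genes whose pools varied most like a member, chosen from all genes and so high by selection, were Mthfsd (r = 0.977), Sox3 (0.957) and Zfp735 (0.945) for Mb, Slc13a3 (0.942), Gm38403 (0.932) and Gcnt1 (0.930) for Car3, and Zbtb25 (0.965), Lrrc24 (0.949) and Cdyl (0.947) for Ckm. For Ckmt2 they were BC004004 (0.957), Trdn (0.956) and Fbxo43 (0.954), for Ak1 Slx4 (0.941), Tmem109 (0.936) and Tbc1d5 (0.927), and for Ampd1 Ppp1r14c (0.982), Cdkl1 (0.963) and Exog (0.957). Mean levels of these 18 at d35 ran from 3.47 (Zfp735), 4.05 (Gm38403) and 4.06 (Cdkl1) up to 13.10 (Trdn), beside array medians of 6.16 to 6.94. Of the 18, 2 were called at d35, where 4.58% of all probe sets were. They were Trdn, the triadin of the calcium release unit, and Ppp1r14c, a phosphatase inhibitor, both lower in wild-type (-0.25 and -0.30). The points share arrays, and no test was made.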

How the data were processed

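Probe sets were matched to the 6 genes by the platform annotation, which gives 1 symbol for 34945 of 45037 probe sets, several for 932 and none for 9160. The authors processed the arrays by RMA in the R package affy (versions not given in the sources used here), and the deposited values are log2 intensities, from 2.78 to 15.3. RMA normalizes across arrays and compresses the ends of the range. A pool was assembled from its chips by genotype, time point and replicate number. Of the probe sets, 64 controls per chip were dropped, and for 100 present on A and B the A value was kept. Array medians of a chip and time point differed by less than 0.1, and the mean correlation of an array with the other 9 of its time point was at least 0.951. On shared probe sets the partner chip was the closest for 8, 9 and 10 of 10 pools, in order of age. The number of arrays limits precision. The median SD between pools was 0.0770, 0.131 and 0.0993 in the same order.

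Each time point was fitted separately with limma 3.58.1 in R 4.3.3 (with the data.table package, version 1.17.8), with Storey q-values (lambda 0.05 to 0.95 in steps of 0.05) over all probe sets and 95% confidence intervals. The code was tested on simulated data. Single members were also tested by exact two-sided permutation over the pools. Interactions used 1 fit of all 30 pools. Promoter windows are from RefSeq (GRCm38.p6), and figures were drawn with Python 3.11.15 and matplotlib 3.10.9. All member probe sets are named, with up to 4 called genes of each list and time point by smallest q or, without a call, up to 2 by smallest p, and the 3 genes most correlated with each member. Refits used Benjamini-Hochberg adjustment, the chips apart, the brighter probe sets, a further quantile normalization, limma with trend and robust options, all pools in 1 model, the replicate number as a block, 1 probe set per gene, and all pools but 1. The members and lists were chosen with earlier results of these data known.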

Additional observations from a re-analysis of the deposited data

Results flagged for a closer look

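Of the 72 groups of 5 pools (12 probe sets, 3 time points and both genotypes), 2 held a pool that stood apart from the other 4 by Dixon's criterion (0.71 of the range), and chance alone gives about 1 in 20 such groups. Wild-type replicate 3 at 13.5 d.p.c. was at 7.17 at Car3 1430584_s_at, where the next highest pool was at 6.94. MSTN-null replicate 1 at 13.5 d.p.c. was at 8.92 at Ak1 1422184_a_at, where the next was at 8.86. The genotype difference of Mb 1451203_at differed between d35 and 17.5 d.p.c. by 1.09 and between d35 and 13.5 d.p.c. by 1.30, and that of Ckm 1444643_at between d35 and 13.5 d.p.c. by -0.45, each by the test of the interaction.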

How the results depend on the processing

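Of the 207 refits of member probe sets at d35, 188 kept their direction and side of the threshold, 11 lost a call, 5 gained one and 3 reversed. At 17.5 d.p.c. 192 of 207 were unchanged and 15 reversed, and at 13.5 d.p.c. 198 of 205 and 7, with 0 calls at either. The count of called members was 5 at d35 and 3 to 5 with a pool left out. Over all probe sets, the 2062 calls at d35 became 1324 with Benjamini-Hochberg adjustment, 1345 with 1 probe set per gene and 777 to 2003 with a pool left out. Leaving out wild-type replicate 3 (777) or MSTN-null replicates 1, 3 or 4 moved that count by over 1.5 times. Without wild-type replicates 2 and 3 of d35, left out together after seeing the data, 638 probe sets and 3 members were called, and the differences of Mb 1422420_at (0.041) and Car3 1460256_at (-0.053), neither called, were reversed. The 243 calls at 13.5 d.p.c. became 159, 9 and 1 to 479, with 386 among the brighter probe sets and 0 in a single fit of all 30 pools, which gave 14 at 17.5 d.p.c. in place of 0. At 13.5 d.p.c. the count moved by over 1.5 times without any one pool other than wild-type replicate 4 and MSTN-null replicate 2, being lowest without wild-type replicate 1 and highest without wild-type replicate 5. Further quantile normalization reversed Mb 1422420_at at 13.5 d.p.c. (0.011) and Car3 1460256_at at d35 (-0.016), neither called. With a pool left out, these ran from -0.045 to 0.023 and from -0.062 to 0.071, and at 17.5 d.p.c. Ak1 1422184_a_at from -0.14 to 0.066, Ak1 1423988_at from -0.20 to 0.048, Car3 1453588_at from -0.18 to 0.027, Ckm 1444643_at from -0.10 to 0.0019 and Ckmt2 from -0.076 to 0.14, and at 13.5 d.p.c. Ckm 1417614_at from -0.016 to 0.10. In the interaction fits, where leaving out pools was chosen after seeing the data, 1 to 2 members were called for d35 against either earlier time point. The causes were not tested. The refits of the related genes were also chosen after seeing the data.

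The correlations of same-numbered pools, after subtraction of the genotype means, ran from -0.10 to 0.08 at 13.5 d.p.c., from -0.20 to 0.48 at 17.5 d.p.c. and from -0.17 to 0.14 at d35, and 1, 3 and 1 of 5 pools correlated best with their own number. At 17.5 d.p.c. numbers 1, 3 and 5 had correlations of 0.30, 0.39 and 0.48, each best with its own number, and numbers 2 and 4 had -0.20 and -0.07. As the labels state no pairing and not every correlation was over 0.1, the numbers were not taken as pairs. As a block they gave 204, 0 and 1854 calls over all probe sets and 0, 0 and 5 among the members. In the blocked limma fit of 17.5 d.p.c., 1 of the 12 had an unadjusted p under 0.05, Ckm 1417614_at, lower in wild-type at 5 of 5 numbers (-0.15, SE 0.0593, unadjusted p = 0.0379, q = 0.989).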
